A study of Homo sapiens with 6 samples.

Results

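The genes described here encode myeloid granule proteins and the small acidic proteins that travel with them in neutrophils and monocytes: *MPO*, *ELANE*, *PRTN3*, *AZU1*, *CTSG*, *LYZ*, *CST3*, *SRGN*, *S100A8* and *S100A9*. They were taken by symbol, as the rows of the count matrix whose human Ensembl identifier maps to each name, and all 10 were found among the 61806 genes listed. Each passed the filter on low counts that left 19149 genes for testing. RNA was sequenced from MV4-11, a human acute myeloid leukemia cell line that carries an *FLT3* internal tandem duplication and a *KMT2A* fusion, in 3 libraries labelled shNC, a control hairpin, and 3 labelled shATGL, a short hairpin against *ATGL*. *ATGL*, listed under its official symbol *PNPLA2*, is the lipase that starts the breakdown of stored triglyceride. The hairpins were delivered by lentivirus according to the study's methods, all libraries come from this single line, and the labels do not say which hairpin against *ATGL* was used. The labels also do not say that libraries of a group came from separate cultures, so the p-values measure the spread between these libraries, which may be technical.

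Granulocyte precursors make their granules in order. The azurophil granules come first, at the promyelocyte stage, and are filled with myeloperoxidase (*MPO*) and the neutral serine proteases elastase (*ELANE*), proteinase 3 (*PRTN3*) and cathepsin G (*CTSG*), together with azurocidin (*AZU1*), a homologue that has lost protease activity. Serglycin (*SRGN*) is the proteoglycan that holds these basic proteins in the granule, lysozyme (*LYZ*) cuts bacterial cell walls, cystatin C (*CST3*) is a secreted inhibitor of cysteine proteases, and *S100A8* and *S100A9* encode the subunits of cytosolic calprotectin, which builds up late in maturation.

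The targeted gene was examined first. *PNPLA2* stood at 101, 97.0 and 107 CPM (read counts scaled to a common library size, with trimmed mean of M-values factors) in the shNC libraries and at 102, 98.1 and 104 CPM in those labelled shATGL. The groups overlapped, and the log2 fold change was -0.01 (SE 0.06, adjusted p = 0.979 by edgeR's quasi-likelihood test), so every direction below is given for the libraries labelled shATGL, without evidence in the transcript of the targeted gene that it was depleted. Total counts ran from 59674064 to 74808280 per library. All 9 markers fixed for this kind of leukemia were detected, 8 of them above 10 CPM. Of 43 markers of other cell types, 19 had no count in any library, 7 exceeded 1 CPM and none exceeded 10 CPM, with the highest at 7.28 CPM.

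The start regions are shown because C/EBP factors and PU.1 are known regulators of granule genes. Windows of up to 250 bases before the annotated start were found for 6 of the 10 genes in RefSeq (GRCh38.p14). Of these, 4 are printed 5′ to 3′ on the strand of the gene, ending before the first exon base annotated within the window. For *AZU1* the RefSeq start is 827837, whereas the GENCODE gene starts at 825097, so its window lies inside the GENCODE gene. The window of *CST3*, which is not printed, also lies inside its GENCODE gene. Capitals mark matches, on either strand, to the letters TTGCNCA for C/EBP factors, GAGGAA for PU.1, TGTGGT for RUNX factors and TATAAA for the TATA box.
*AZU1*, chr19:827587-827835, plus strand: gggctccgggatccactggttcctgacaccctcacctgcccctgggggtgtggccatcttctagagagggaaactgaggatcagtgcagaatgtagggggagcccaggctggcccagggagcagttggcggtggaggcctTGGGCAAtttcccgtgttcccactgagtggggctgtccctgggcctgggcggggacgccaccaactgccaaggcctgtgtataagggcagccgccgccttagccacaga
*PRTN3*, chr19:840749-840959, plus strand: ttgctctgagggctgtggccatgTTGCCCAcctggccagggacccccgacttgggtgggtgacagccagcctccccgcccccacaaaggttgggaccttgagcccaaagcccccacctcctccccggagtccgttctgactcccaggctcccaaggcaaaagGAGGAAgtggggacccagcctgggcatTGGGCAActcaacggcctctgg
*CTSG*, chr14:24576261-24576500, minus strand: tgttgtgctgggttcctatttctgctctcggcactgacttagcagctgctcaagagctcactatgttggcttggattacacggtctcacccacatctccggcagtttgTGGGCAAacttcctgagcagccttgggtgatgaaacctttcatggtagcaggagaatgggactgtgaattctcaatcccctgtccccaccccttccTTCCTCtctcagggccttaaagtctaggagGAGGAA
*S100A8*, chr1:153391189-153391438, minus strand: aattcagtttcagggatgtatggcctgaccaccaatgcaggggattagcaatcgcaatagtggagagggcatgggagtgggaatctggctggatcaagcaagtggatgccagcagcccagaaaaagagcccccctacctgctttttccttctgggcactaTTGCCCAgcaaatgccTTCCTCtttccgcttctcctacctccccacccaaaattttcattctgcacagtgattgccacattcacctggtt

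The C/EBP letters were found for 4 of the 6 genes with a window, which are the 4 printed, and in 10.1% of all 35116 windows of that kind. The first share counts genes and the second counts windows. The 6 genes had 8 windows, 3 of them for *S100A8*, so the shares are not like measures. The *PRTN3* window held the C/EBP letters at 227 and 61 bases before the start, with the PU.1 letters at 88 bases. In *CTSG* the C/EBP letters lay 142 bases before the start and the PU.1 letters at 46 and 16 bases. RefSeq gives 3 start sites for *S100A8*. From the first, which is printed, the distances were 90 bases for C/EBP and 74 bases for PU.1. From the second they were 205 and 189 bases, with a TATA box at 29 bases, and the third had a TATA box at 126 bases and no C/EBP or PU.1 match. For *AZU1* the C/EBP match lay at 110 bases. The window of *S100A9* had no C/EBP match but held the PU.1 letters at 208 bases, the RUNX letters at 103 bases and a TATA box at 29 bases, while that of *CST3* held none of the motifs. The PU.1 letters were present in 23.6% of all windows, the RUNX letters in 11.0% and the TATA box in 10.7%. These are letter matches and not measured binding sites.

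Of the 10 genes, 6 were among the most abundant transcripts of these cells, and *MPO* was below the median. Together the 10 took 1.04 to 1.20% of all counts in a library. Levels between genes were compared as CPM per kilobase of the longest annotated transcript, averaged over the 6 libraries. *SRGN* was highest at 4514 CPM per kilobase, ranked 9 of 18566 tested genes with a length, followed by *PRTN3* at 2123 (rank 24), *ELANE* at 971 (rank 55) and *AZU1* at 709 (rank 79). *LYZ* at 516 and *CTSG* at 466 CPM per kilobase came next, and their ranges over libraries overlapped, so their order was not resolved on this length. *CST3* was 10.2-fold below *CTSG* at 45.5 CPM per kilobase, *S100A9* stood at 30.0 and *S100A8* at 6.98. *MPO* was the lowest of the 10 at 1.20 CPM per kilobase, below the median of 3.23 over tested genes. Apart from *LYZ* and *CTSG*, the ranges over libraries of neighbours in this order did not overlap, and the order was the same with the length of all exons joined. On that length *LYZ* stood at 447, *CTSG* at 301 and *S100A8* at 3.63 CPM per kilobase.

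**Figure D1:**
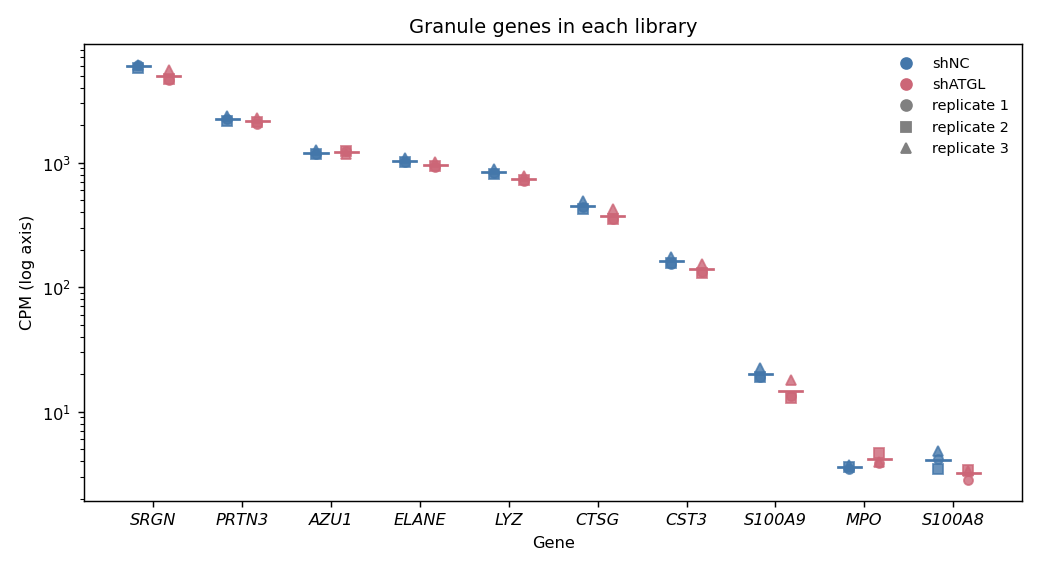
CPM (log axis) of the 10 granule genes in each of the 6 libraries, shNC in blue and shATGL in red, with the replicate number as the marker shape and the group mean as a line. Levels run from about 5453 CPM for *SRGN* to under 5 CPM for *MPO* and *S100A8*.

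The low level of *MPO* stood apart from the other azurophil enzymes. *PRTN3* exceeded *MPO* by 1404-fold to 1997-fold per kilobase across the libraries, and *ELANE* exceeded it by 627-fold to 915-fold. The *MPO* level rests on 214 to 356 counts per library. *MPO* lies on chromosome 17 (58269856 to 58280935, minus strand, GRCh38 in GENCODE 29), whereas *AZU1* (825097 to 832018), *PRTN3* (840960 to 848175) and *ELANE* (851014 to 856247) form a cluster on the plus strand of chromosome 19. The gaps within the cluster are 8941 bp between *AZU1* and *PRTN3* and 2838 bp between *PRTN3* and *ELANE*.

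Among the azurophil proteins, none of the 5 passed the test between shATGL and shNC. In the whole fit 1 gene was called at adjusted p under 0.05 (0.00522% of those tested), and no member was. *MPO* stood at 3.46, 3.60 and 3.74 CPM in shNC and at 3.86, 4.65 and 3.93 CPM in shATGL. All shATGL values lay above all shNC values, with a log2 fold change of 0.20 (SE 0.14, adjusted p = 0.576). *ELANE* stood at 1004, 1013 and 1093 CPM against 926, 932 and 1021 CPM. The third shATGL library lay inside the shNC range, and the log2 fold change was -0.11 (SE 0.06, adjusted p = 0.511).

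*PRTN3*, the most abundant of the proteases, gave 2230, 2148 and 2384 CPM in shNC and 2054, 2103 and 2278 CPM in shATGL. The ranges overlapped (log2 fold change -0.07, SE 0.06, adjusted p = 0.666). *AZU1*, its inactive homologue in the same cluster, gave 1171, 1179 and 1263 CPM against 1243, 1246 and 1183 CPM. Its values were interleaved, with a log2 fold change of 0.02 (95% confidence interval -0.10 to 0.15, adjusted p = 0.885). *CTSG*, on chromosome 14, gave 441, 421 and 490 CPM against 351, 353 and 423 CPM. The first and second shATGL libraries lay below every shNC library and the third did not (log2 fold change -0.26, SE 0.09, adjusted p = 0.393).

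Within the chromosome 19 cluster, *AZU1* made up 26.6, 27.2 and 26.6% of the summed CPM in shNC and 29.4, 29.1 and 26.4% in shATGL. *PRTN3* made up 48.6 to 50.8% and *ELANE* 21.8 to 23.3% over all 6 libraries. The shares in the third shATGL library resembled those of shNC.

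The matrix and secreted products were lower in most shATGL libraries, again without passing the adjusted threshold. *SRGN* stood at 6048, 5708 and 6112 CPM in shNC and at 4638, 4717 and 5496 CPM in shATGL. Every shATGL value lay below every shNC value, and the log2 fold change was -0.27 (SE 0.07, adjusted p = 0.392). *LYZ* stood at 829, 805 and 889 CPM against 715, 720 and 777 CPM, also without overlap (log2 fold change -0.19, SE 0.06, adjusted p = 0.392). *CST3* stood at 154, 155 and 173 CPM against 132, 129 and 155 CPM, and the third shATGL library reached the shNC range (log2 fold change -0.21, SE 0.09, adjusted p = 0.416). In bulk RNA, fewer cells of a type and less RNA per cell cannot be told apart.

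The calprotectin subunits, neighbours on chromosome 1 separated by 29004 bp, had the largest negative fold changes of the 10 genes. *S100A9* stood at 19.1, 18.8 and 22.3 CPM in shNC and at 13.3, 12.8 and 17.8 CPM in shATGL. The groups did not overlap, and the log2 fold change was -0.46 (SE 0.15, adjusted p = 0.392). *S100A8* stood at 4.14, 3.43 and 4.78 CPM against 2.82, 3.38 and 3.34 CPM. The groups were apart, though the nearest libraries differed little (log2 fold change -0.37, SE 0.17, adjusted p = 0.447). The count ratio of *S100A9* to *S100A8* was 4.61, 5.50 and 4.66 in shNC and 4.70, 3.78 and 5.32 in shATGL, and the groups overlapped.

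**Figure D2:**
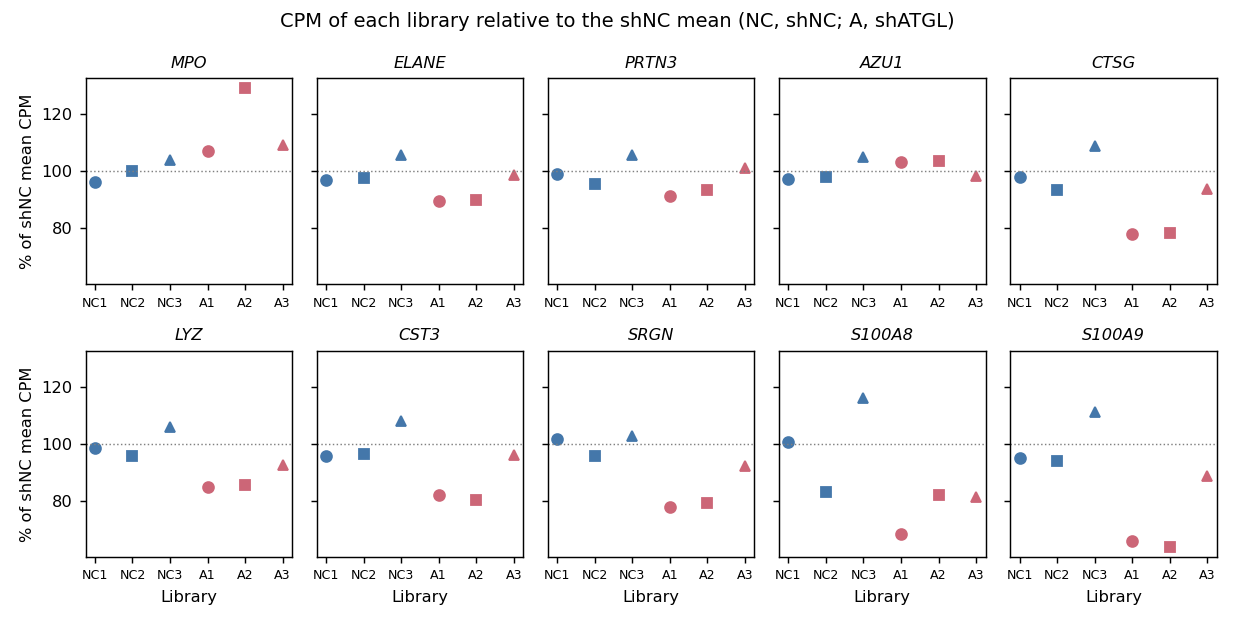
CPM of each library as a percentage of the shNC mean of that gene (dotted line at 100%), 1 panel per gene, with shNC libraries (NC1 to NC3) in blue and shATGL libraries (A1 to A3) in red. The first and second shATGL libraries sit at 63.7 to 93.3% for the 8 genes other than *MPO* and *AZU1*, and the third lies nearer to shNC for most of them.

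Counted together, 8 of the 10 genes had a negative log2 fold change and 2 a positive one, with a median of -0.20 beside 0.01 over all tested genes. An unadjusted p under 0.05 in the lower direction was reached by 5 genes (*CTSG*, *LYZ*, *CST3*, *SRGN* and *S100A9*), where 5.94% of all tested genes did so, and by none in the higher direction (5.77% of all tested genes). The groups were apart in the lower direction for 4 genes (9.38% of all tested genes) and in the higher direction for 1 (7.93%). With 3 libraries against 3 the exact two-sided permutation test cannot go below p = 0.1, the value it gave for the 5 genes whose groups were apart, and it gave 0.2 to 0.8 for the others.

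The libraries of a group were not alike. The third shNC library was the highest of its group for 10 of 10 genes, and the third shATGL library was the highest of its group for 7 of 10. When the third shATGL library was left out, 5 genes passed the adjusted threshold in edgeR's test, all lower, beside 6.07% of the 19954 genes tested in that fit. These were *SRGN* (log2 fold change -0.35, SE 0.04, adjusted p = 0.00258), *S100A9* (-0.63, adjusted p = 0.0118), *CTSG* (-0.36, adjusted p = 0.0152), *CST3* (-0.30, adjusted p = 0.0232) and *LYZ* (-0.23, adjusted p = 0.0266). The same 5 genes passed in limma voom with quality weights over all 6 libraries, where 5.27% of all tested genes passed in the lower direction. When the third shNC library, the first shATGL library or the second shATGL library was left out instead, 1 gene had an unadjusted p under 0.05 in edgeR's test. Leaving out the first shNC library gave 4 such genes, and leaving out the second gave 5. Fold changes over all genes also moved with transcript length (Spearman's rho 0.22 across 18566 genes, which are not independent replicates). With each library's trend with length and GC content removed, the log2 fold changes were -0.33 for *SRGN* (SE 0.18, beside 0.07 before), -0.45 for *S100A9* (SE 0.13) and -0.26 for *CTSG* (SE 0.07). None of the members passed the adjusted threshold, and 3 had an unadjusted p under 0.05 in edgeR's test, beside 5 before. The median log2 fold change over all tested genes was -0.05 in that fit. The part of length or of single libraries in these differences was not tested further.

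**Figure D3:**
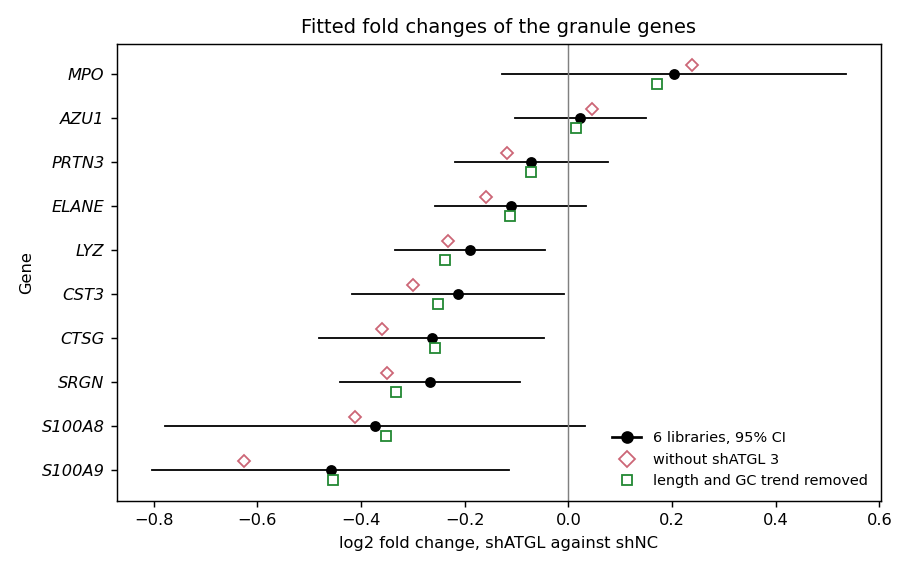
Log2 fold change (shATGL against shNC) of each granule gene with its 95% confidence interval from edgeR over 6 libraries (black), without the third shATGL library (red diamonds) and with the length and GC trend removed (green squares). *MPO* and *AZU1* lie to the right of 0 and the other 8 genes to the left in all 3 settings.

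Genes of other maturation stages place these levels. Among 13 specific granule products, which follow the azurophil proteins, 7 had no count in any library (*LTF*, *LCN2*, *MMP8*, *CRISP3*, *OLFM4*, *CEACAM8* and *CD177*), which allows up to 0.0401 to 0.0503 CPM per library, for counting error only. The other 6 were tested, 4 exceeded 1 CPM, and the single gene above 10 CPM was *CHI3L1*, a chitinase-like protein, at 533 ± 20.3 CPM in shNC and 506 ± 4.76 CPM in shATGL (SD, n = 3). Of 10 late neutrophil surface genes, *FCGR3B*, *ALPL* and *MME* had no count and 2 exceeded 10 CPM. Among the 2 was *CSF3R*, the receptor for granulocyte colony-stimulating factor, at 110 ± 1.37 and 117 ± 2.90 CPM. Of 10 early progenitor genes, *PROM1*, *AVP*, *CRHBP* and *MECOM* had no count. The 3 above 10 CPM were *KIT*, *MYB* and *GATA2*, with *MYB* at 501 ± 25.2 and 485 ± 21.0 CPM. Monocyte genes were mixed: 10 of 18 exceeded 10 CPM, led per kilobase by *CD68*, *MS4A6A* and *MNDA*, whereas *FCGR3A* and *CD300E* had no count.

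**Figure D4:**
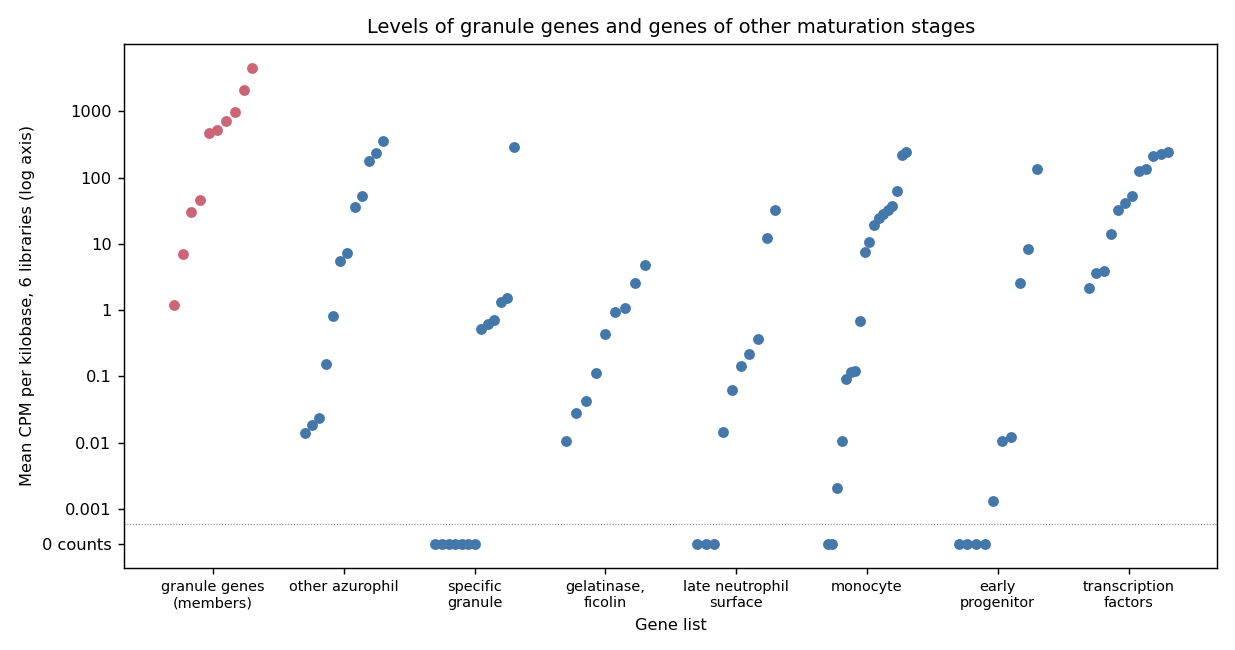
Mean CPM per kilobase over 6 libraries (log axis) of the 10 granule genes (red) and of genes of other granule classes, maturation stages and transcription factors (blue), with genes that had no count in any library on the lowest line. Of the specific granule genes, 7 had no count and *CHI3L1* alone exceeds 10 CPM, while 6 granule genes exceed 400 CPM per kilobase.

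With all 6 libraries in edgeR's test, none of the genes in the lists around the granule proteins passed the adjusted threshold. Counts that follow from that fit are of directions and unadjusted p-values. Beside them, 48.1% of all tested genes had a negative fold change, and 5.94% had an unadjusted p under 0.05 in the lower direction. Of the 36 tested genes named from these lists, 13 passed without the third shATGL library, 12 of them lower, and 12 passed with limma voom, 11 of them lower. *MNDA*, a nuclear protein of myeloid cells, was the one that was higher (log2 fold change 0.51, adjusted p = 0.0036, without that library, and 0.29, adjusted p = 0.582, with it). Over all tested genes, 6.07% passed in the lower direction without the third shATGL library and 5.27% with limma voom. The 36 genes were named as the 3 highest per kilobase of each list. They are therefore not a like sample of all tested genes, and genes matched for level were not compared. Of 12 other azurophil products, 9 were tested and 7 of these had a negative fold change. The ribonuclease *RNASE2* stood at 296 ± 16.1 CPM in shNC and 244 ± 13.8 CPM in shATGL (log2 fold change -0.28, adjusted p = 0.392), and *MS4A3* at 398 ± 21.6 and 347 ± 16.9 CPM. With *PRSS57*, named after its values were seen, 3 genes of this list had an unadjusted p under 0.05 in the lower direction. *CTSC*, the dipeptidase that activates the granule proteases, stood at 232 ± 11.1 and 208 ± 17.6 CPM. Among 11 tested activators and inhibitors of proteases, 8 had a negative fold change, among them *CSTA*, a cytosolic cystatin, at 44.7 ± 2.96 and 33.4 ± 3.26 CPM.

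Of 14 other S100 genes, 8 were tested. A negative fold change was found for 6 of them and a positive one for 2. An unadjusted p under 0.05 was reached by 3, all lower, where 5.94% of all tested genes did so in that direction. These were *S100A4* (158 ± 12.5 against 127 ± 13.6 CPM), *S100A6* (55.3 ± 6.57 against 42.9 ± 5.49 CPM) and *S100A11* (144 ± 11.1 against 125 ± 11.4 CPM). Of 20 tested lysosomal genes, 17 had a negative fold change and 3 a positive one, with a median log2 fold change of -0.06. Among 12 enzymes that build the glycosaminoglycan chains of serglycin, 6 were negative and 6 positive, with a median of -0.02. Of 12 transcription factors of granule genes, 10 had a negative fold change. *CEBPA*, the factor that drives granulocyte commitment, stood at 614, 600 and 664 CPM in shNC and at 530, 516 and 594 CPM in shATGL, without overlap (log2 fold change -0.19, SE 0.07, adjusted p = 0.399). *SPI1*, which encodes PU.1, stood at 307 ± 8.85 and 295 ± 10.1 CPM. *CFD*, a serine protease gene next to *ELANE*, stood at 253 ± 17.2 and 217 ± 19.6 CPM.

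Over the 6 libraries, the genes whose profile was nearest to the summed CPM of *MPO*, *ELANE*, *PRTN3*, *AZU1* and *CTSG* were *PPP2CB*, *SH3GL1*, *EXOSC6*, *GMDS* and *DHX16*, out of 9287 genes above 10 CPM. Their root mean square distances were 0.01 on the log2 scale, over 6 points that share library and depth. The summed profile itself spans a narrow range of 4578 to 5234 CPM. Most of the sum came from *PRTN3*, *AZU1* and *ELANE*, with means of 2199, 1214 and 998 CPM. *MPO*, at a mean of 3.87 CPM, hardly entered it.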

How the data were processed

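The authors deposited raw read counts per human Ensembl gene for 6 MV4-11 libraries in a single table. Reads had been cleaned with fastp per the study's methods; the aligner, counter and strand setting are not given in the sources used here, and the only genome build in the submitters' processing notes is a mouse one, although the identifiers are human. The labels' descriptions of RNA extraction differ (TRIzol and a miRNeasy kit).

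Counts were filtered with filterByExpr (minimum count 10, minimum total 15), scaled by TMM and tested with edgeR 4.0.16 (quasi-likelihood, Benjamini-Hochberg over 19149 genes; called at adjusted p under 0.05, and for counts of called genes also a fold of 2). CPM values use TMM library sizes. DESeq2 1.42.0, limma 3.58.1 (voom with quality weights), other scalings and filters, a replicate block, a length and GC offset and leaving out each library were alternatives. Exact permutation tests used log2(CPM + 1), with 0.1 as the other pseudocount. Symbols matched 61757 of 61806 identifiers; lengths came from GENCODE 29. The fit was checked on simulated data.

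The members and lists were chosen with earlier results of these data known. Named genes were the members, *PNPLA2*, and from each list the 3 highest per kilobase, any with adjusted p under 0.05 and those with no count. Overlapping annotations had 0 to 45 counts per library beside *LYZ*, *CST3* and *SRGN*.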

Additional observations from a re-analysis of the deposited data

How the results depend on the processing

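The members kept their direction in 14 of 14 alternatives, and their median log2 fold change stayed between -0.27 and -0.15. No member passed the adjusted threshold except 5 with limma voom and 5 without the third shATGL library (0 to 5 when libraries were left out in turn). Genes called at a fold of 2 numbered 1 over all libraries, 3 with upper-quartile scaling, 24 with DESeq2 and 266 with limma voom, and 0 to 319 when libraries were left out in turn, the highest without the third shATGL library. The labels do not say whether replicate numbers pair the samples. Deviations from group means correlated at 0.0783, 0.220 and 0.344 between same-number libraries, and at -0.287 to 0.207 between the others. The third libraries went together (0.344, against -0.287 to -0.105 with libraries of another number). Deviations within a group sum to 0 for each gene, so these negative values are not independent of the positive one. The first and second libraries were not told apart (0.0900 and 0.207 when crossed). With the replicate block 0 genes were called (3317 at an unadjusted p under 0.05, beside 2243 without it), and 0 members passed. Of the 5 genes nearest in profile to the granule enzymes, 4 remained with a minimum of 1 CPM. The cause of these shifts was not tested.

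Some genes near no change turned sign. With the length and GC trend removed, the log2 fold change was -0.026 for *MMP25*, -0.017 for *FPR2* and -0.039 for *CHSY1*. With limma voom it was -0.028 for *FPR2* and -0.056 for *CHSY1*, and with upper-quartile scaling -0.0059 for *CHSY1*. Libraries left out in turn gave -0.11 to 0.12 for *MMP25*, -0.17 to 0.25 for *FPR2*, -0.062 to 0.052 for *CHSY1*, -0.079 to 0.013 for *CTSD*, -0.13 to 0.0038 for *PTBP1* and -0.024 to 0.033 for *PNPLA2*.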
